A study of Mus musculus with 20 samples.

Results

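The transcription factor genes Gata2, Tal1, Lyl1, Lmo2, Fli1 and Erg were examined in cultured mouse blood stem and progenitor cells that differed in the gene Runx2. Together with Runx1 they are known as the stem-cell heptad, and they were chosen by name, 6 of the 49997 genes in the count tables. Polyadenylated RNA from bone marrow cells was sequenced in 18 libraries, 3 in each of 6 groups. The groups were Runx2 homozygous knockout (hom), Runx2 heterozygous knockout (het) and Runx2 wild type (WT) cells, each as HSC and as HPC. HSC carry the surface phenotype CD201+CD150+cKit+Sca1+Lineage- of haematopoietic stem cells, and HPC the phenotype CD201-CD150-cKit+Sca1+Lineage- of progenitors. All 6 groups were primary cells kept in culture. Runx2-flox mice and CRISPR knockout are both named in the series' design text, without saying which was used for a library. Strain, age and whether replicates are separate animals are not stated in the labels. The p-values below rest on the variation among libraries, some of which may be technical.

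As background, the heptad factors bind many of the same enhancers in blood stem and progenitor cells, at sites where their recognition motifs lie close together. GATA2 reads GATA motifs. TAL1 and LYL1 are closely related basic helix-loop-helix proteins that pair with E proteins on E-boxes. LMO2 does not bind DNA itself and bridges these proteins to the GATA factor through LDB1. FLI1 and ERG are related members of the ETS family, and RUNX1 shares its DNA motif with RUNX2, the protein of the gene removed here. Gata2, Tal1, Lmo2 and Runx1 are required for blood formation in the mouse embryo, and Erg is needed to maintain stem cells.

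Library totals ran between 18050298 and 27061457 counts in HSC and between 16663497 and 22284511 in HPC. A member had 1487 to 12922 counts in a library, so counting error alone was 0.88% to 2.59% of a value. Runx2 RNA followed the order of the labels, hom below het below WT, at 18.7% of WT in HPC hom, 82.7% in HPC het, 21.7% in HSC hom and 70.1% in HSC het. Of the knockout groups, HPC het kept the most Runx2 RNA and had the most genes called against WT. CPM are counts scaled to the library total, with scaling factors for composition fitted within each cell type. Values of HSC and HPC side by side are therefore on separate scales unless stated. Of the sort markers, Procr (CD201) stood at 38.1 to 67.3 CPM in HSC and 4.48 to 7.2 CPM in HPC. Slamf1 (CD150) stood at 17.0 to 22.0 CPM in HSC and 3.00 to 12.02 CPM in HPC. Kit lay between 469.95 and 557.83 CPM in HSC and between 380.36 and 560.56 CPM in HPC. Ly6a, the Sca1 gene, had 0 counts in all 18 libraries, so the tables hold no check of that marker. The Y-linked gene Ddx3y gave 122 to 167 CPM in HSC and 0 counts in HPC, while Xist reached 1.25 CPM at most in HSC and 2552.6 to 4440.7 CPM in HPC. Sex and cell type thus went together and cannot be told apart in any difference between HSC and HPC, whereas the genotypes of a cell type shared a sex.

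Lmo2 was the most abundant member per transcript length in every group. In TPM, which divides counts by gene length before scaling, Lmo2 averaged 495 ± 55.6 TPM in HSC hom, 490.2 ± 19.0 in HSC het and 447 ± 23.0 in HSC WT, and 461 ± 12.7 in HPC hom, 518 ± 15.6 in HPC het and 422 ± 14.6 in HPC WT (SD, n = 3). Lyl1 came next, at 203 to 219 TPM over the HSC groups and 141.5 to 151 TPM over the HPC groups. Gata2 followed with 127 to 131 TPM in HSC and 117 to 148 TPM in HPC. The ranges of Lyl1 and Gata2 overlapped in HPC hom and HPC WT. Compared library by library, Lyl1 stood above Gata2 in every HPC hom library. In HPC WT it did so except in replicate 1, with 138 TPM of Lyl1 and 138.5 TPM of Gata2. Tal1 and Fli1 were lowest and changed places between the cell types. Tal1 stood above Fli1 in HSC (76.2 to 80.9 TPM against 67.2 to 72.3 TPM over the groups), and Fli1 above Tal1 in HPC (77.3 to 88.5 TPM against 64.6 to 74.9 TPM). Their ranges overlapped in HSC hom and in HPC WT, though every library of these groups kept the order of its cell type. Erg was left out of the order because its exons are annotated both on chromosome 16 and on an alternate contig, which makes its length uncertain and can lower its counts. HSC WT had 189 ± 9.8 TPM of Erg with the exon length of chromosome 16 (4163 bases) and 103 ± 5.35 TPM with the deposited length (7620 bases).

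The genes lie on separate chromosomes of mm10. Gata2 is at chr6:88193891-88207032 (plus strand), Tal1 at chr4:115056426-115071755 (plus), Lyl1 at chr8:84701423-84704716 (plus), Lmo2 at chr2:103957903-103981878 (plus), Fli1 at chr9:32422204-32543432 (minus) and Erg at chr16:95359169-95586600 (minus). The values below count reads over all exons of a gene. Of the exon bases, 4.77% in Tal1, 0.27% in Lyl1 and 0.12% in Lmo2 also belong to another annotated gene. RefSeq promoter windows of 300 bases, running 250 bases upstream and 50 bases downstream of an annotated start, were at hand for 4 of the 6 members (8 windows of Gata2, Tal1, Lyl1 and Erg, build GRCm38.p6). They are shown for Gata2, the member that was lower in HPC of both knockout genotypes, and for Lyl1, which passed in neither. The windows were searched on both strands for the letters of the factors' own motifs. For RUNX proteins these were TGTGGT, the common core of the motif, and separately the variant core with a cytosine, which is spelled TGCGGT. The E-box of helix-loop-helix factors was searched as CANNTG, where N is any base. The GATA motif was searched as AGATAA, and the core of the ETS family's motif as CCGGAA. Capitals mark the matches.
Gata2, upstream start, chr6:88193641-88193940, plus strand: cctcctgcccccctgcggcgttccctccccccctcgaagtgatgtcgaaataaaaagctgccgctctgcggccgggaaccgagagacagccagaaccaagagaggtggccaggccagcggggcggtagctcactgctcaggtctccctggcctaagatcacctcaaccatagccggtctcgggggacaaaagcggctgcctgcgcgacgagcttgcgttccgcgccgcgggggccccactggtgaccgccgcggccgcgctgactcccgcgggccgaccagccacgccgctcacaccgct
Gata2, downstream start, chr6:88198414-88198713, plus strand: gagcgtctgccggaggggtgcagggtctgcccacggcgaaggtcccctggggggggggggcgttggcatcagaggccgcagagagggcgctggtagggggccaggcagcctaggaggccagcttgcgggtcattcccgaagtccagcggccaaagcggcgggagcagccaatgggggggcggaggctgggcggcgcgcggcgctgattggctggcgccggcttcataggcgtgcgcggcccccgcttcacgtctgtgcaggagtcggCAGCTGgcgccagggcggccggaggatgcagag
Lyl1, chr8:84701207-84701506, plus strand: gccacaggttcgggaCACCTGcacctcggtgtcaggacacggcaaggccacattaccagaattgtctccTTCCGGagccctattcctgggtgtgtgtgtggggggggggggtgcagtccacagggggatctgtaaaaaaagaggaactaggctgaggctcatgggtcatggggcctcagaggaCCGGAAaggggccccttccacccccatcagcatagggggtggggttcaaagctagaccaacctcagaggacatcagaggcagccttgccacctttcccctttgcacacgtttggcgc
The upstream Gata2 window held none of these letters and the downstream window held a single E-box, CAGCTG, 17 bases past the start. Lyl1's window held 1 E-box, 235 bases before the start, and 2 ETS matches, 1 on the minus strand and 1 on the plus strand. None of these matches overlapped another. Neither RUNX sequence occurred in any of the 8 windows, where 16.8% of 32851 promoter windows of the same length held the common core and 6.45% the variant. E-box letters were in 72.3% of all windows, GATA letters in 11.2% and ETS letters in 14.9%. A match describes the letters of the window and no binding, and the enhancers of these genes lie outside it.

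In HPC, Gata2 was lower and Lmo2 higher in het cells than in WT, and Gata2 was also lower in hom cells. Tal1 lay below WT and Lmo2 above WT in every hom library without passing the test. The largest of these shifts took Lmo2 to 125.5% of its WT level. Called means an adjusted p under 0.05 in edgeR's quasi-likelihood test, over all genes tested in the cell type. Of the 6 members, 2 were called in het against WT, where 16.1% of 13855 genes were called, and 1 in hom against WT, where 9.21% were called. CPM below are scaled within a cell type. In these sorted populations, fewer cells of a type and less RNA per cell cannot be told apart.

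**Figure D1:**
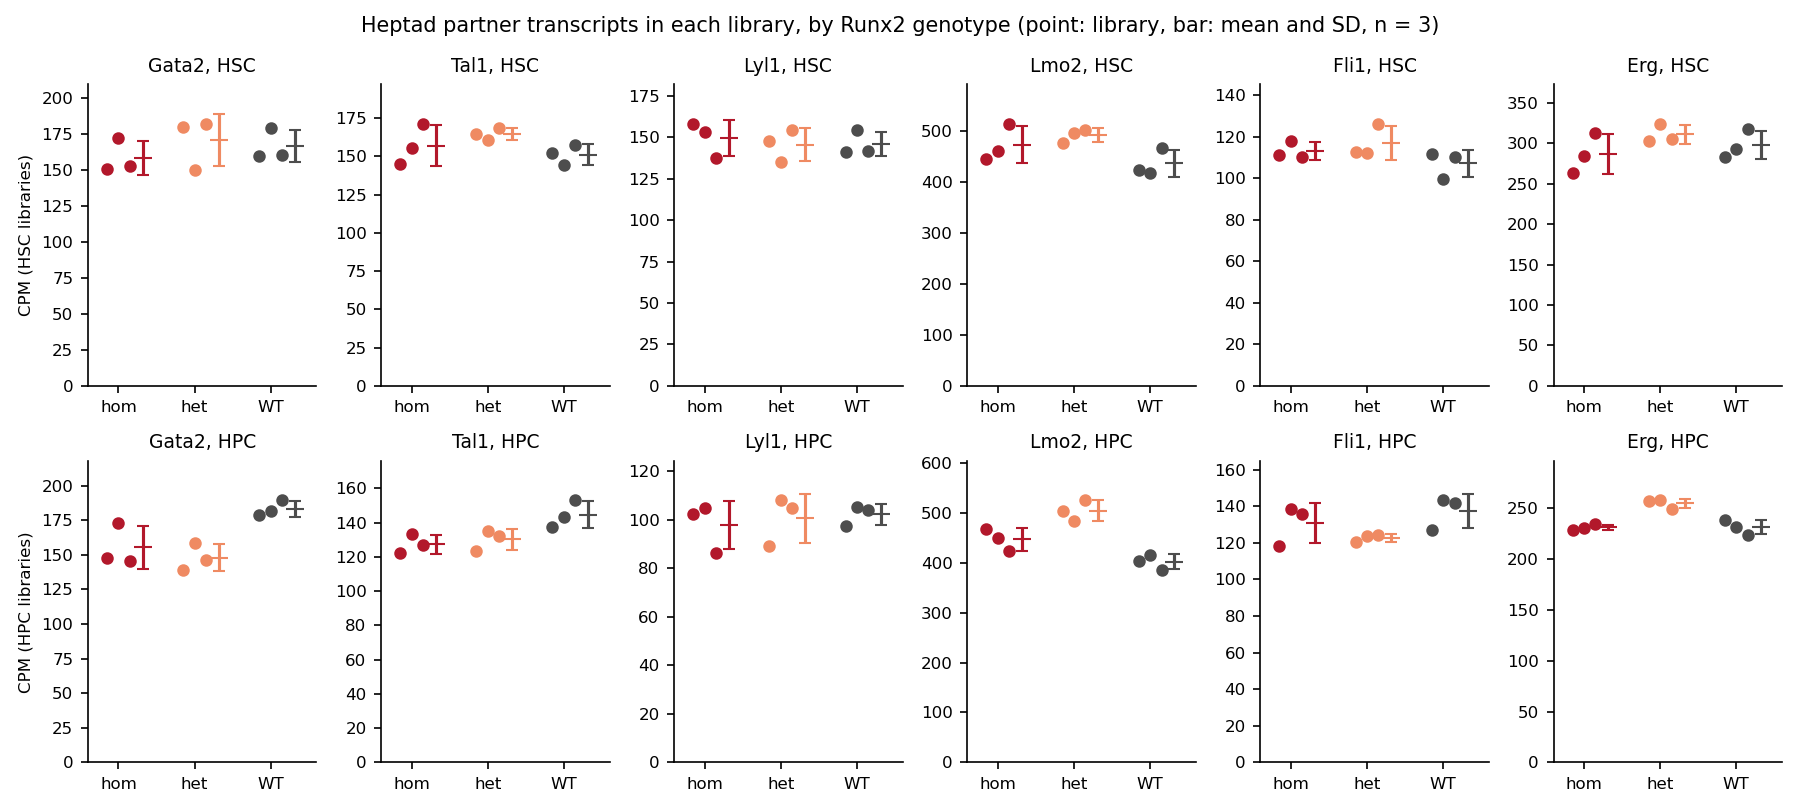
CPM of the 6 members in each library, hom left of het and WT, with HSC in the upper row and HPC in the lower row. Points are libraries and bars the mean and SD of 3. In HPC, Gata2 lies below WT in all 6 knockout libraries and Lmo2 above WT in all 6. The scaling is within a cell type, so heights are not compared between rows.

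Gata2, which promotes the survival of stem cells and the mast cell, basophil and megakaryocyte lineages, measured 147.5, 173 and 146 CPM in HPC hom, 139, 158 and 147 CPM in HPC het, and 178.5, 182 and 189 CPM in HPC WT. All 6 knockout libraries lay below all 3 WT libraries. In het it fell to 80.8% of WT (log2 fold change -0.31 ± 0.07 SE, edgeR adjusted p = 0.00518, 95% interval 73.0% to 89.5%). In hom it fell to 84.8% of WT (-0.24 ± 0.07, edgeR adjusted p = 0.0387, interval 76.6% to 93.9%). The hom call depended on single libraries. It was lost without WT replicate 2 (adjusted p = 0.106), WT replicate 3 (0.153), hom replicate 1 (0.145) or hom replicate 3 (0.141), with log2 values of -0.33 to -0.20 over the 6 fits that leave out a library. The het call held in all 14 alternatives. Hom and het did not differ by the test (0.07 ± 0.07, adjusted p = 0.585), with an interval of 94.8% to 116% for hom relative to het.

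Tal1, the helix-loop-helix factor that specifies blood and later acts in erythroid and megakaryocytic cells, measured 122, 133 and 127 CPM in HPC hom, 123, 135 and 132 CPM in HPC het, and 137, 143.5 and 153 CPM in HPC WT. The knockout libraries all lay below WT, yet neither genotype passed. Hom stood at 88.0% of WT (log2 -0.18 ± 0.06, edgeR adjusted p = 0.0698) and het at 90.0% (-0.15 ± 0.06, adjusted p = 0.104). With the replicate number as a block, and with no filter on low counts, the hom value passed (adjusted p = 0.0466 and 0.0475). Lyl1, its close relative with overlapping roles in adult stem cells, measured 102, 105 and 86.4 CPM in HPC hom, 89.2, 108 and 105 CPM in HPC het, and 97.3, 105 and 104 CPM in HPC WT. Its groups overlapped in every genotype comparison of HPC. The log2 values were -0.06 ± 0.08 in hom and -0.02 ± 0.08 in het, and the intervals kept Lyl1 within 85.3% to 107.5% and 87.8% to 111% of WT.

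Lmo2, the bridging protein, lay on the other side of WT. It measured 468, 449 and 423 CPM in HPC hom, 504, 483 and 525 CPM in HPC het, and 403, 416 and 386 CPM in HPC WT. The 3 genotypes of HPC did not overlap, and het lay highest. It rose in het cells, to 125.5% of WT with an interval of 115% to 137% (log2 0.33 ± 0.06, edgeR adjusted p = 0.00114), a change larger in size than that of 78.8% of the genes tested. Hom stood at 111% (0.15 ± 0.06, adjusted p = 0.142) and did not pass. Hom lay below het by log2 -0.17 ± 0.06, which missed the threshold in edgeR (adjusted p = 0.0849) and passed it in DESeq2 (adjusted p = 0.0412). The het call held in all 14 alternatives.

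The ETS members did not pass in HPC. Fli1, which with ERG supports stem cells and megakaryocytes, measured 118, 139 and 136 CPM in HPC hom, 120.3, 124 and 124 CPM in HPC het, and 127, 143 and 142 CPM in HPC WT. The het libraries lay below WT (log2 -0.16 ± 0.07, edgeR adjusted p = 0.118) and the hom libraries overlapped it (-0.07 ± 0.07, adjusted p = 0.612). Erg measured 228.5, 231 and 234 CPM in HPC hom, 257, 257.5 and 249 CPM in HPC het, and 238, 232 and 224 CPM in HPC WT. Its het libraries lay above both other genotypes (0.14 ± 0.05 against WT, edgeR adjusted p = 0.0870, DESeq2 adjusted p = 0.0493). Hom and WT averaged 231 ± 2.63 and 231 ± 7.08 CPM (SD, n = 3), a log2 difference with an interval of -0.11 to 0.11. Across the members, 5 of 6 did not overlap WT in het, where 33.9% of all genes did not, and 3 of 6 in hom, where 26.4% did not.

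Direct comparison of hom with het in HPC called none of the 6 in edgeR, against 9.4% of all genes (1303, with 701 without het replicate 2 and 797 without hom replicate 3). At an unadjusted p under 0.05 it gave 2 (Lmo2 and Erg, both lower in hom than in het) and 23.9% of all genes, DESeq2 called 1 (Lmo2) and limma voom 0. These 2 members were also the ones whose hom and het libraries did not overlap, where 27.5% of all genes did not. The hom, het and WT groups share libraries between these comparisons, so their values are not independent of each other. The median log2 value of the members was -0.07 in hom against WT and -0.09 in het against WT, where over all genes it was 0.00 in both.

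**Figure D2:**
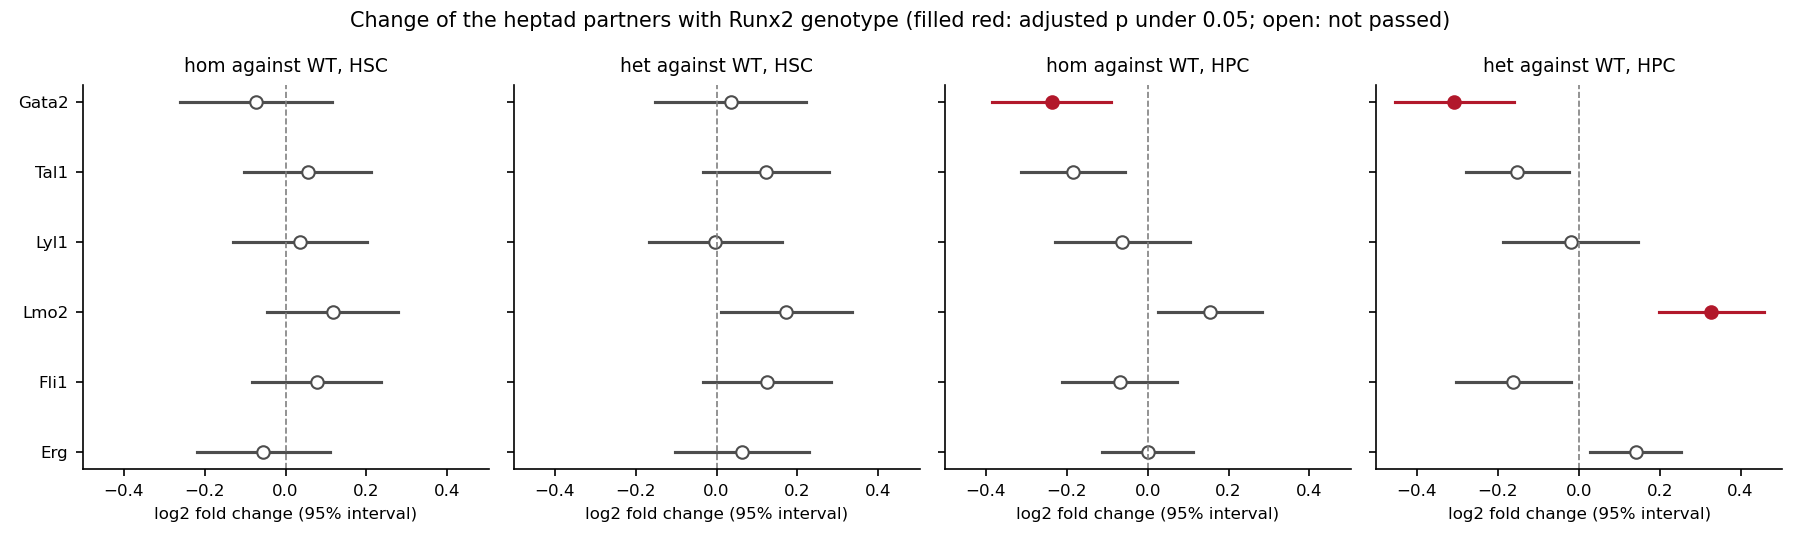
Log2 fold change of each member against WT, with its 95% interval, in HSC (left panels) and HPC (right panels). Filled red points passed an adjusted p of 0.05 and open points did not. The filled points are Gata2 in HPC hom and in HPC het and Lmo2 in HPC het. All HSC points are open.

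In HSC no member was called in either genotype. In hom against WT, edgeR called 0 of 6, with 0 at an unadjusted p under 0.05 and 0 in DESeq2 and in limma voom. Over all 14959 genes edgeR called 2.01%, and 18.4% had an unadjusted p under 0.05. That background of 300 genes was unsteady, at 48 genes without WT replicate 2 and 638 without hom replicate 3, the lowest and highest of the 6 fits that leave out a library. In het against WT, edgeR, DESeq2 and voom each called 0, and 1 member (Lmo2) had an unadjusted p under 0.05, where edgeR called 0.0334% of genes and 13.8% had such a p. In hom against het all these counts were 0, where edgeR called 0.0134% of genes and 11.7% had an unadjusted p under 0.05. The libraries of hom overlapped WT for all 6 members, where 24.5% of all genes did not overlap.

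Gata2 measured 150.2, 172 and 152 CPM in HSC hom, 179.7, 149.6 and 182 CPM in HSC het, and 159.7, 179 and 160.4 CPM in HSC WT. The genotypes overlapped, and the hom interval ran between 83.5% and 108% of WT. Tal1 measured 145, 155 and 171 CPM in HSC hom, 165, 160.5 and 169 CPM in HSC het, and 152, 144 and 157.5 CPM in HSC WT. Its het libraries lay above WT (log2 0.12 ± 0.07, edgeR adjusted p = 0.483), and its hom libraries were the most scattered. Lyl1 measured 158, 153 and 138 CPM in HSC hom, 147.5, 135 and 154 CPM in HSC het, and 141, 154.5 and 142 CPM in HSC WT, with no order among genotypes. Its log2 values against WT were 0.04 ± 0.08 in hom and 0.00 ± 0.08 in het.

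Lmo2 in HSC had the largest difference of the members in both genotypes. It measured 445, 459.9 and 514 CPM in HSC hom, 476, 496 and 502.5 CPM in HSC het, and 423, 418 and 467 CPM in HSC WT. The het libraries lay above WT (log2 0.17 ± 0.08, edgeR adjusted p = 0.342, interval 101% to 126% of WT) and the hom libraries overlapped it (0.12 ± 0.08, adjusted p = 0.433, interval 96.9% to 121%). Fli1 measured 111, 118 and 110.2 CPM in HSC hom, 112.4, 112.0 and 126 CPM in HSC het, and 111.8, 99.8 and 110.1 CPM in HSC WT. Its het libraries lay just above WT (0.12 ± 0.07, adjusted p = 0.481). Erg measured 263, 284 and 313 CPM in HSC hom, 303, 324 and 305 CPM in HSC het, and 283, 293 and 317 CPM in HSC WT, and all genotypes overlapped (-0.05 ± 0.08 in hom, 0.06 ± 0.08 in het). Het and WT failed to overlap for Tal1, Lmo2 and Fli1, 3 of 6, where 23% of all genes did not overlap.

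Whether a genotype acted differently on a member in HSC and HPC was tested as a difference of differences over all 18 libraries. No member passed for hom, where 2.79% of 15431 genes did, nor for het, where 1.94% did. These backgrounds, 431 genes for hom and 300 for het, ranged from 149 to 941 and from 138 to 292 over fits that leave out a library. DESeq2 and limma voom also called 0 in both. The het contrast was added after the values were seen. At an unadjusted p under 0.05 stood 1 member for hom (Tal1), with 17.8% of all genes, and 3 for het (Gata2, Tal1 and Fli1), with 12.9%. Gata2's het effect was higher in HSC than in HPC by log2 0.34 ± 0.12 (edgeR adjusted p = 0.184), Tal1's by 0.27 ± 0.09 (0.190) and Fli1's by 0.28 ± 0.10 (0.199). Lmo2's differed by -0.16 ± 0.10 (0.516). The Gata2 and Lmo2 calls in HPC and their absence in HSC are therefore not shown to differ between the cell types.

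**Figure D3:**
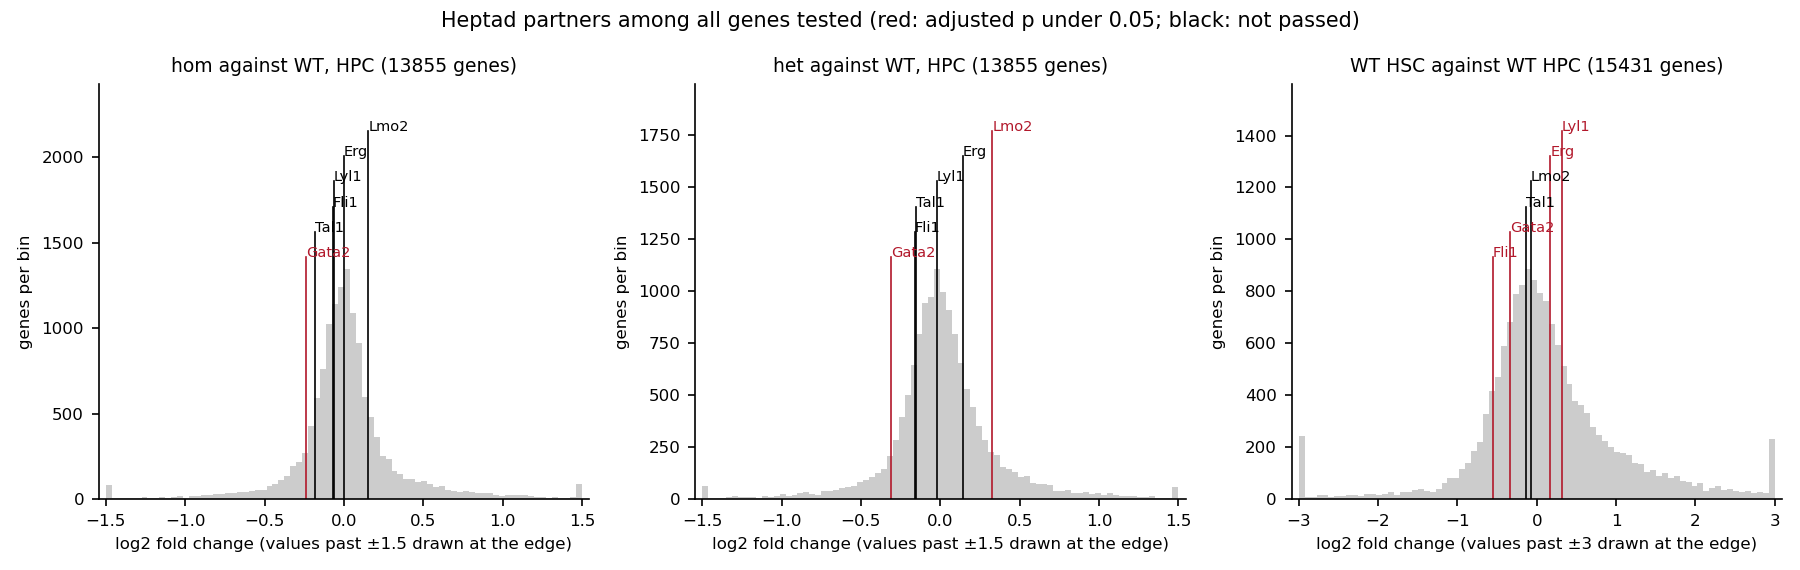
Distribution of log2 fold changes of all genes tested (grey) with the members marked, for hom against WT and het against WT in HPC and for WT HSC against WT HPC. Red members passed an adjusted p of 0.05. In HPC het, Gata2 at -0.31 and Lmo2 at 0.33 stand on opposite sides, and between WT HSC and WT HPC Fli1 lies lowest at -0.55 and Lyl1 highest at 0.32.

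Between the cell types in WT, 4 of the 6 members differed, in a comparison that called 54.9% of 15431 genes. Fli1 and Gata2 were lower in HSC and Lyl1 and Erg higher. CPM here are scaled over both cell types together. Fli1 measured 105, 94.0 and 103 CPM in WT HSC and 137, 153 and 152 CPM in WT HPC, or 68.3% of HPC (log2 -0.55 ± 0.07, edgeR adjusted p = 9.61e-07). Gata2 measured 149.9, 168.5 and 150.3 CPM in WT HSC and 193, 194 and 203 CPM in WT HPC, or 79.4% (-0.33 ± 0.08, adjusted p = 0.00179). Lyl1 measured 132, 145 and 133 CPM in WT HSC and 105, 112 and 111.5 CPM in WT HPC, or 125% (0.32 ± 0.08, adjusted p = 0.00261). In each of these the cell types did not overlap.

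Erg measured 265, 276 and 297 CPM in WT HSC and 258, 247 and 240.1 CPM in WT HPC, or 113% (log2 0.17 ± 0.06, edgeR adjusted p = 0.0274). This call was lost with no filter on low counts (0.112), without HSC WT replicate 3 (0.153) and without HPC WT replicates 2 (0.0727) or 3 (0.145). Tal1 measured 143, 136 and 148 CPM in WT HSC and 149, 153 and 164 CPM in WT HPC (-0.13 ± 0.07, edgeR adjusted p = 0.106), and Lmo2 397, 393 and 438 CPM in WT HSC and 436, 444 and 414 CPM in WT HPC (-0.08 ± 0.07, adjusted p = 0.362). Neither passed. The libraries of 5 members did not overlap, where 64.5% of all genes did not. Scaling mattered here. Without scaling factors for composition the median log2 value of all genes was 0.21, against 0.03 with them, the Gata2 difference was -0.15 (edgeR adjusted p = 0.117, not called) and those of Tal1 and Lmo2 turned to 0.05 and 0.11, while Fli1, Lyl1 and Erg kept their calls and directions. The split of all calls was then 6031 higher of 8696 called, against 4274 of 8469 with the factors.

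The balance between related members was followed as a ratio of counts within a library, which no scaling factor affects. Erg had 2.37 to 2.84 counts per Fli1 count in the hom libraries of HSC, 2.42 to 2.89 in het and 2.53 to 2.94 in WT. In HPC it had 1.66 to 1.93 in hom, 2.01 to 2.14 in het and 1.58 to 1.88 in WT. All HSC libraries lay above all HPC libraries in this ratio. Within HPC, het lay above both other genotypes. Tal1 had 0.916 to 1.25 counts per Lyl1 count in the hom libraries of HSC, 1.09 to 1.19 in het and 0.934 to 1.11 in WT, and in HPC 1.19 to 1.47 in hom, 1.25 to 1.38 in het and 1.36 to 1.47 in WT. The Erg ratio rests on counts that the alternate contig copy can lower.

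**Figure D4:**
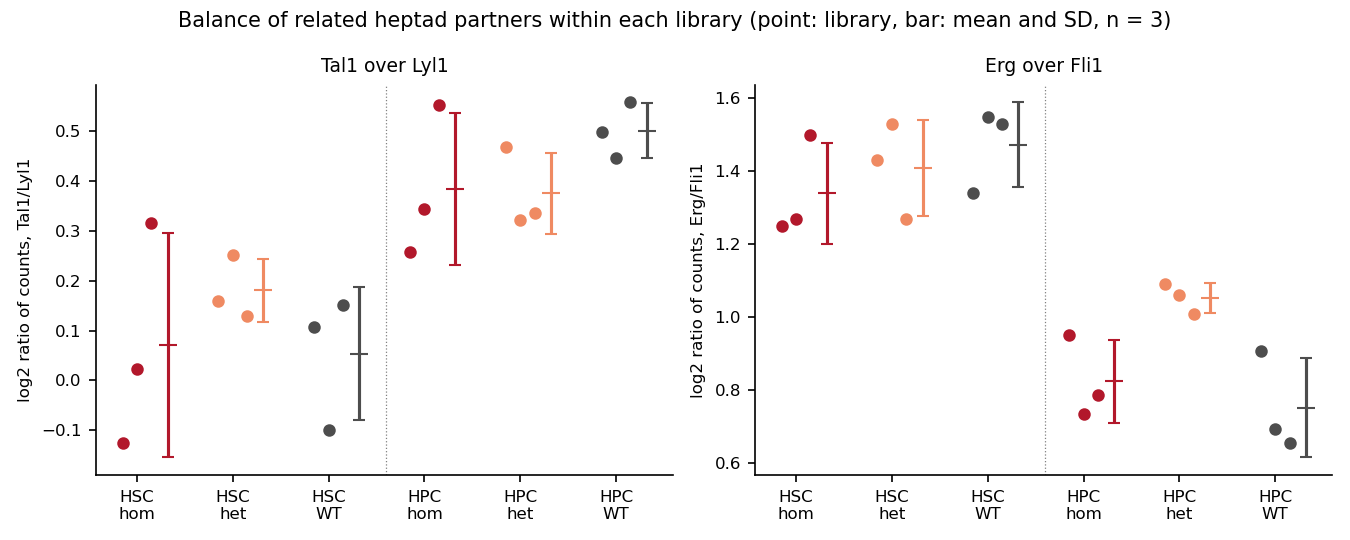
Log2 ratio of counts of Tal1 over Lyl1 and of Erg over Fli1 in each library, hom left of het and WT within HSC and within HPC. Points are libraries and bars the mean and SD of 3. Erg over Fli1 is higher in every HSC library than in any HPC library, and Tal1 over Lyl1 shows no separation of genotypes within a cell type.

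GATA2 is replaced by GATA1 on shared sites as progenitors enter the erythroid and megakaryocytic lineages, which makes that ratio of interest too. Gata1 had 2 to 20 counts in an HSC library, too few for a stable ratio. In HPC, Gata1 measured 12.7, 22.4 and 17.4 CPM in hom, 5.88, 9.49 and 9.11 CPM in het, and 15.5, 15.7 and 21.5 CPM in WT. Gata2 exceeded Gata1 by 7.75 to 11.6 times in the hom libraries, 16.1 to 23.7 times in the het and 8.81 to 11.6 times in the WT libraries. Differences of the 3 ratios between hom and WT and between het and WT were tested over 12 libraries each, with genotypes permuted within cell types (exact permutation test, two-sided, smallest possible p = 0.005). None of the 6 tests passed. For Erg over Fli1 in het the log2 difference was 0.12 (exact p = 0.19, adjusted p = 0.57), the mean of -0.06 in HSC, where the groups overlapped, and 0.30 in HPC, where they did not. Nothing is read from the pooled tests of Gata2 over Gata1, which take in the HSC ratios. In het the pooled value was 0.92 (exact p = 0.14, adjusted p = 0.57) and ran between 0.54 and 1.35 when a library was left out. In HPC alone the het libraries lay above all WT libraries in Gata2 over Gata1, by log2 0.81. Within a cell type, 3 libraries against 3 cannot give an exact p below 0.1.

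Runx1, the seventh factor of the heptad, was higher in HPC of both knockout genotypes. It measured 273, 269.9 and 300.3 CPM in HPC hom, 276, 270.3 and 255 CPM in HPC het, and 219.7, 236.5 and 233 CPM in HPC WT. The knockout libraries all lay above WT (log2 0.29 ± 0.06 in hom, edgeR adjusted p = 0.00421, and 0.22 ± 0.06 in het, adjusted p = 0.0206). In HSC the values were 0.16 ± 0.07 in hom (adjusted p = 0.242) and 0.06 ± 0.07 in het (adjusted p = 0.760), and neither passed. The RNA of Runx1 thus stood above WT in HPC where that of Gata2 stood below.

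Of the proteins that work with LMO2 and TAL1, 19 were listed (LDB, SSBP, E and ID proteins and their corepressors) and 17 tested. In HPC hom 0 were higher and 2 lower than WT. These were Gfi1b, a repressor protein needed in erythroid and megakaryocytic cells (-0.42 ± 0.08, edgeR adjusted p = 0.00263), and Zfpm1, the GATA cofactor FOG1 (-0.36 ± 0.10, adjusted p = 0.0367). Zfpm1 was lower in HPC het too (-0.54 ± 0.10, adjusted p = 0.00202), with 80.3, 103 and 86.9 CPM in HPC hom, 74.4, 89.8 and 73.7 CPM in HPC het, and 105, 115 and 127 CPM in HPC WT. HPC het also had 2 members higher, the E protein gene Tcf4 (0.32 ± 0.05) and Ssbp2, which protects LDB1 from degradation (0.22 ± 0.06). Ldb1 itself measured 164, 174 and 163 CPM in HPC hom, 169, 172 and 177 CPM in HPC het, and 174, 182.5 and 175 CPM in HPC WT, and passed in neither genotype. The median of the 17 was -0.08 in hom and -0.03 in het. In HSC none of the 17 passed in hom or het. Over all genes tested against WT, edgeR called 9.21% in HPC hom, 16.1% in HPC het, 2.01% in HSC hom and 0.0334% in HSC het. These shares also stand beside the counts of the lists below. Whether a list held more calls than its share was not tested.

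Relatives of the members, 12 other GATA, TAL, LMO and ETS genes of which 11 were tested in HPC, gave 1 higher and 1 lower in HPC hom. Gata3, a factor of T and innate lymphoid cells, was lower (-0.58 ± 0.14, edgeR adjusted p = 0.0126), and the ETS gene Gabpa higher (0.18 ± 0.06, adjusted p = 0.0476). In HPC het, Gata1 (-1.10 ± 0.24) and Ets2 (-0.38 ± 0.09) were lower and Ets1 (0.58 ± 0.11) and the myeloid factor gene Spi1 (0.24 ± 0.08) higher. Ets2 has an alternate contig copy like Erg. In HSC none of 10 passed in hom or het.

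The heptad is described as binding near genes such as Mecom and Gfi1. Of 19 genes listed for this, all tested, 4 were higher and 6 lower in HPC hom, 7 higher and 3 lower in HPC het, and none passed in HSC hom or het. Those with the lowest p in HPC hom went in both directions. The repressor gene Gfi1 (0.73 ± 0.09) and Hlf, a transcription factor gene active in stem cells (0.48 ± 0.07), were higher, and Mecom, which sustains stem cells (-0.51 ± 0.07), was lower. The median log2 values over the 19 were 0.01 in hom and 0.06 in het. Runx1, Spi1, Gfi1b, Zfpm1 and Cbfa2t3 are among the 19 and are also described above or belong to the lists above. The counts of these lists are therefore not separate. No binding was measured in these files.

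The HPC libraries also held transcripts from lists of lineage markers, and some of these differed between genotypes. They are given here as summed CPM over each list. The 11 neutrophil granule genes found of 12 listed summed to 2559.2 to 2719.7 CPM in HPC hom, 1923.4 to 2319.0 in het and 1551.5 to 1646.6 in WT, against 68.6 to 104 CPM over all HSC libraries. In HPC hom 9 of the 11 were called higher than WT, and in HPC het 4. Monocyte and macrophage genes (12) summed to 836 to 925 CPM in HPC hom, 869 to 906 in het and 461 to 522 in WT, with 10 of 12 higher in each knockout genotype. No gene of either list was at 0 in any of the 3 HPC groups. Megakaryocyte genes (12), a lineage in which Gata2, Tal1, Fli1 and Gfi1b act, summed to 498 to 686 CPM in HPC hom, 478 to 569 in het and 711 to 773 in WT. Of these 3 were lower in hom and 5 in het, with none higher. Some genes, Itga2b among them, are on this list and on that of genes bound by the heptad.

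Mast cell and basophil genes (12, of which 10 were tested) summed to 351 to 381 CPM in HPC hom, 274 to 293 in het and 345 to 379.95 in WT, against 9.93 to 20.1 CPM over all HSC libraries. In hom 4 were higher and 2 lower, and in het 3 higher and 3 lower. The similar sums of hom and WT hide changes in both directions. Gzmb averaged 165.2 CPM in HPC WT, 73.4 in hom and 83.6 in het, a large part of the WT sum. Cpa3 went the other way, with 53.2 CPM in HPC WT, 95.4 in hom and 64.65 in het. So did Hdc, with 12.8, 29.9 and 16.3 CPM. Erythroid genes summed to 556 to 619 CPM in HPC hom, 548 to 656 in het and 585 to 671 in WT, and of 11 tested 2 were higher and 2 lower in hom and 2 lower in het. Endothelial genes, from a cell type in which Erg and Fli1 are also high, summed to 536 to 594 CPM in HPC hom, 606 to 654 in het and 505 to 547 in WT. Of 9 tested, 2 were higher and 3 lower in hom and 3 higher and 4 lower in het, and Sox17, a defining endothelial gene, was at 0 in all HPC groups. A large part of the endothelial sum was Pecam1, at 258.1 CPM in HPC hom, 263.3 in het and 218.8 in WT. Tie1 went the other way, at 62.3, 81.1 and 96.95 CPM. Cdh5 stood near 0, at 0.137 ± 0.133, 0.131 ± 0.138 and 0.0153 ± 0.0265 CPM (SD, n = 3). In an HPC library 3 counts made 0.135 to 0.18 CPM, so no direction is read from Cdh5. T lineage genes summed to 49.6 to 57.6 CPM in HPC hom, 69.9 to 78.5 in het and 83.4 to 88.1 in WT. Of 7 tested, 1 was higher and 6 lower in hom and 1 higher and 3 lower in het, with the defining genes Cd3e and Ptcra at 0 in every HPC group. Over all HSC libraries the monocyte and macrophage list summed to 205 to 241 CPM, the megakaryocyte list to 594 to 757 and the erythroid list to 623 to 782. The endothelial list summed to 765 to 867 CPM there and the T lineage list to 68.5 to 112. Of these lists only that of monocytes and macrophages lay below all HPC libraries. The megakaryocyte, erythroid and T lineage sums overlapped those of HPC, and the endothelial sum lay above them. The part of these lineage transcripts in the Gata2, Lmo2 and Runx1 values of HPC, and in the Fli1 and Gata2 difference between HSC and HPC, was not tested.

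Genes whose levels ran most like each member were taken from 10051 genes over the 18 libraries, after subtracting the mean of the cell type. Pearson's r is a description here, since the libraries share genotypes, depth and cell type. Gata2 ran most like Nectin1 (0.891), Rbpms2 (0.884) and Rnf181 (0.878). Tal1 ran like Mta3 (0.869), Gypc (0.858) and Cavin1 (0.851), and Lyl1 like Mrpl45 (0.861), Tlnrd1 (0.848) and Ddost (0.843). Lmo2 was closest to Fcgrt (0.940), H2-DMa (0.929) and Gstm1 (0.928), Fli1 to Ddit4 (0.845), Lat (0.821) and Jdp2 (0.778), and Erg to Cd68 (0.951), Ctsl (0.920) and Glul (0.900). Rnf181 and H2-DMa have alternate contig copies, and Cd68 is also on the list of monocyte and macrophage genes. Among the members themselves the highest value was 0.665 (Lmo2 and Erg) and the lowest -0.553 (Gata2 and Lmo2). Within HPC, Gata2 ran with Tal1 (0.892) and Fli1 (0.736) and against Lmo2 (-0.755) over 9 libraries. Within HSC the Gata2 values were 0.12 with Tal1, 0.216 with Fli1 and -0.134 with Lmo2. Tal1 and Lmo2 ran together in HSC (0.89) and apart in HPC (-0.627).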

How the data were processed

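The deposited values are raw gene counts in a table per cell type, made per the file headers with featureCounts 2.0.6 from paired reads over exons without regard to strand. FastQC, Trim Galore 0.6.10 for trimming and the aligner STAR 2.7.11a are named in the submitters' processing notes. Those notes give mm39 as the build, the headers an mm10 annotation, and coordinates here are mm10. The deposited gene lengths, in bases, served for TPM. The CUT&Tag samples were not analysed here.

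Tests used edgeR 4.0.16 (quasi-likelihood, robust) in R 4.3.3 with TMM factors, filterByExpr and Benjamini-Hochberg adjustment over all genes, in a fit of 9 libraries per cell type. A fit of all 18 gave differences between cell types. Called means an adjusted p under 0.05. Values after ± are SD for levels and SE for log2 fold changes. Intervals are 95%. The procedure was run on simulated data whose changes were larger than those of the members between genotypes. That run does not address the recovery of changes of the members' size. Alternatives were DESeq2 1.42.0, limma 3.58.1 (voom), RLE factors, no TMM factors, other filters, a replicate block, fits of the compared groups alone and leaving out each library.

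The members, lists and comparisons were chosen with earlier results of these data known. Named are the members, Runx1, Runx2, sort markers, list genes called in hom against WT (up to 4 by p where 5 or more were called, of which 1 is not reported here), all called genes of lists with under 5, and the 3 most similar genes per member (mean of at least 5 CPM, log2 CPM with a prior count of 2). Ldb1, Gata1 in HPC hom and values of further list genes that did not pass were named after their values were seen. Strand was not used in counting, so reads of overlapping antisense genes cannot be told apart.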

Additional observations from a re-analysis of the deposited data

How the results depend on the processing

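The calls of Gata2 and Lmo2 in HPC het and of Fli1 and Lyl1 between WT HSC and WT HPC held under all 14 alternatives run for each, and no alternative called a member in HSC or in either test between the cell types' genotype effects. Members called in hom against WT in HPC numbered 2 (Gata2 and Tal1) with no filter on low counts and with the replicate block, and 0 to 2 when a library was left out. DESeq2 called 1 in hom against het in HPC (Lmo2). Deviations of same-numbered libraries from their group means correlated between -0.127 and 0.228. Differently numbered libraries were not compared, so these values cannot decide whether the numbers pair the samples. The replicate block changed no other call of a member. Without TMM factors, Tal1 and Lmo2 between WT HSC and WT HPC turned to 0.0488 and 0.105. Erg in hom against WT in HPC, at -0.000127, became 0.000189 (DESeq2), 0.000208 (voom), 0.000112 (RLE), 0.000342 (at least 1 CPM in 3 libraries) and 0.000345 (replicate block). Leaving out a library turned the sign of differences near 0. The log2 ranges were -0.0204 to 0.0176 (Erg) and -0.122 to 0.0166 (Lyl1) in hom against WT in HPC, -0.122 to 0.000921 (Erg), -0.00799 to 0.0918 (Lyl1) and -0.0121 to 0.108 (Tal1) in hom against WT in HSC, and -0.0189 to 0.12 (Gata2) and -0.0516 to 0.0485 (Lyl1) in het against WT in HSC. They were -0.0820 to 0.0582 (Lyl1) in het against WT in HPC, -0.0112 to 0.125 (Gata2) and -0.125 to 0.046 (Lyl1) in hom against het in HPC, -0.0793 to 0.0151 (Fli1) and -0.0148 to 0.101 (Lyl1) in hom against het in HSC, and -0.0731 to 0.0658 (Lyl1) in the difference of het effects. The cause was not tested. Ratios taken in a single cell type turned sign for Tal1 over Lyl1 in hom (0.0174 in HSC alone) and het (-0.126 in HPC alone) and for Erg over Fli1 in het (-0.0599 in HSC alone) and hom (0.0713 in HPC alone). Their ranges on leaving out a library were -0.0374 to 0.0249 (Tal1 over Lyl1, het), -0.0726 to 0.00772 (Erg over Fli1, hom) and -0.335 to 0.317 (Gata2 over Gata1, hom). Calls over all genes moved by more than 1.5 times in several comparisons. In HSC, hom against WT gave 300 in edgeR, 794 in DESeq2, 898 with no filter, 155 with the compared groups alone and 189 with the replicate block. Het against WT gave 5, with 220 in DESeq2, 399 with no filter and 299 with the compared groups alone, and hom against het 2, with 160 in DESeq2 and 511 with no filter. The hom effect between cell types gave 431, with 831 in DESeq2 and 738 with no filter, and the het effect 300, with 499, 592 and, for the compared groups alone, 514. Leaving out a library gave 48 to 638 in hom against WT, 2 to 7 in het against WT and 1 to 408 in hom against het in HSC, 701 to 1179 in hom against het in HPC (1303 with all libraries), 149 to 941 for the hom effect and 138 to 292 for the het effect. In HPC the counts against WT stayed within 1.5 times, at 871 to 1198 in hom and 1604 to 1813 in het. Counting error was at most 2.59% of a member's value, so the spread between libraries set the precision.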
